A study of Drosophila melanogaster with 159 samples.

Results

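The genes described here are 113 Drosophila melanogaster genes whose RNA was high in feeding larvae, out of 3045 genes with a probe of a single gene name. They were chosen on measured values. A member had a mean over larvae of 43 to 84 h at least 1.5 log2 units above its mean over metamorphosis of 2 to 10 h. The larval mean also had to be at least 1.5 above the mean over embryos of 7 to 13 h and at least 0.5 above the wild-type adult mean. All 4 means could be computed for 3018 genes. The rule leaves out 10 named genes and all symbols starting Cyp, Gst, Ugt or Cpr, which removed 12 genes that passed on values.

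A feeding larva eats almost without pause and grows through a series of moults. Its midgut secretes proteases and carboxypeptidases into a lumen lined by the peritrophic matrix, a sheet of chitin and chitin-binding proteins. Its fat body turns sugars and amino acids into stored fat and blood proteins, and its cuticle is renewed at every moult. Feeding stops before the animal leaves the food to pupariate, and larval gut, muscle and much of the larval body are broken down and replaced during metamorphosis.

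The study followed RNA of whole animals through the life cycle on 159 arrays with 12588 probes. Embryos, larvae, metamorphosing animals and adults were Canton S wild type, and adult flies also came from groups titled tudor. In Drosophila, mothers without tudor have offspring without germ cells. The titles do not say whether the flies or their mothers lacked the gene, and the growth text of those arrays names Canton S as well.

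Embryos came from one-hour egg lays, larvae were synchronised at hatching, and animals in metamorphosis were collected as white prepupae. Adults were kept as mixed sexes and sorted by sex once frozen, so that females were housed with males. The labels do not say whether larval hours count from hatching or from egg laying. The arrays fall into 80 groups, of which 79 have 2 arrays and metamorphosis of 0 h has 1. Nothing says that the 2 came from separate collections, so every p-value measures no more than how these arrays varied, and that may be technical variation.

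Each value is a log2 ratio of the sample to a common reference RNA, with the median of each array set to 0. A level of 0 is the median ratio of that array, and the scale allows one gene to be followed between stages but not one gene's level to be set against another's. Red over green was taken as sample over reference. Scan comments state this for 13 arrays, and it is likely but not stated for the others. Between 6722 and 8546 probes had a value on an array. In whole animals, fewer cells of a type and less RNA per cell cannot be told apart.

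Several arrays stand apart. Those of embryos of 2 to 3 h and of 4 to 5 h and of metamorphosis of 12 and 16 h, all replicate 1, resembled no other array. The scan comments of 6 arrays name a time or number that differs from the title, and the title was kept. Replicate 1 and replicate 2 of metamorphosis of 20 to 80 h, correlated poorly. Slide numbers in the titles form 2 series, called here set A (57 arrays) and set B (102 arrays), and at these times replicate 1 is on set A and replicate 2 on set B. The slide set was a term in every fit but that of the sexes in tudor flies, whose arrays are all on set B.

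The values that chose the members are a description. The larval mean of the members had a median of 1.42, a lowest value of -1.30 and a highest of 2.94, and 107 of 113 were above 0. It exceeded the prepupal mean by a median of 2.44 (1.54 to 5.64), the embryonic mean by 2.54 (1.51 to 6.02) and the adult mean by 1.22 (0.50 to 5.67). Against adults, 72 members differed by at least 1 and 23 by at least 2. The members closest inside the limits were CG9672, with a larval mean 0.501 above the adult mean, and Lim1, with a larval mean 1.51 above the embryonic mean. The genes closest outside were CG1468 and NimB1, whose larval means were 1.496 and 1.495 above the prepupal mean.

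The label was checked against all 80 groups. For 63 of the 113 members the highest group mean lay in a larval group, and for 50 it lay elsewhere. Of those 50, 24 were highest in tudor adults, 14 in embryos, 10 in metamorphosis and 2 in wild-type adults. The set is therefore not one of genes found in the feeding larva alone. That members were high in the feeding larva and low in the prepupa and mid-embryo is the rule itself. On the 1 array of metamorphosis of 0 h, outside the rule, members went both ways. CG7953 was at 4.62 and Rim2 at 2.87, while obst-E was at -4.71 and HisT at -2.72. Values were present on at least 80% of the 66 arrays of the rule for 99 members, and 14 had fewer, the lowest 25 arrays. The members lie on chromosome arms 2L (19), 2R (21), 3L (22), 3R (33), X (17) and chromosome 4 (1), and 53 are named only by a CG number.

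Of the 113 members, 34 had another probe, most of them with very few values. The other probe of CG14613 passed every limit, with differences of 2.73, 2.09 and 1.14 from prepupae, embryos and adults. For Atx2, an RNA-binding regulator of translation, the other 2 probes went against the rule, with larval minus prepupal means of -0.33 and -1.41. Its values below come from 1 of 3 probes.

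Roles known for 46 members sort them into 9 groups, drawn up with the values known. The largest holds 10 genes of digestion and the gut lining. CG7252, which carries chitin-binding domains, had the widest margin of all members, taken as the larval mean minus the highest of the other 3 means (3.91). Its mean was 1.57 ± 0.64 (SD, n = 12) in feeding larvae, -2.34 in prepupae, -2.76 in embryos and -3.27 in adults. The carboxypeptidase CG18585 had means of 1.49, -2.38, -2.33 and -0.88 in the same order. The alkaline phosphatase Alp6 had 1.32, -3.56, -2.68 and -1.07. These 3 genes were low in each of the other stages that the rule used.

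Among 5 members of cuticle and chitin, obst-E, a chitin-binding protein of larval cuticle, had a mean of 2.27 ± 1.39 (SD, n = 12) in feeding larvae against -1.14, -3.20 and -1.88, and its prepupal arrays were spread widely (SD 3.07, n = 10). The muscle Z-disc protein Zasp52 had 1.66 against -1.12, -1.86 and -2.62. Faa, the fumarylacetoacetase of tyrosine breakdown, had 1.60 against -2.33, -0.75 and -0.62. The fatty acid synthase FASN1 had 1.54 ± 0.40 (SD, n = 5) in larvae, -3.16 ± 0.27 (n = 5) in prepupae, -3.23 ± 0.43 (n = 5) in embryos and 0.29 ± 0.74 (n = 10) in adults. Of the arrays of the rule 25 had a value for it, the fewest of any member. PPO2, a prophenoloxidase of crystal cells, had 1.96 in larvae, -2.33 in prepupae, 0.26 in embryos and -0.54 in adults.

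Tpi, the triose phosphate isomerase of glycolysis, was at 2.45 in larvae and 1.52 in adults. Others with wide margins were CG11470, with 1.70 ± 0.56 in larvae and means of -1.35 in embryos and -1.27 in adults, CG33307 with 2.94 in larvae and 0.37 in adults, and snRNP-U1-70K, a spliceosome subunit, with 0.99 and -1.21.

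**Figure D1:**
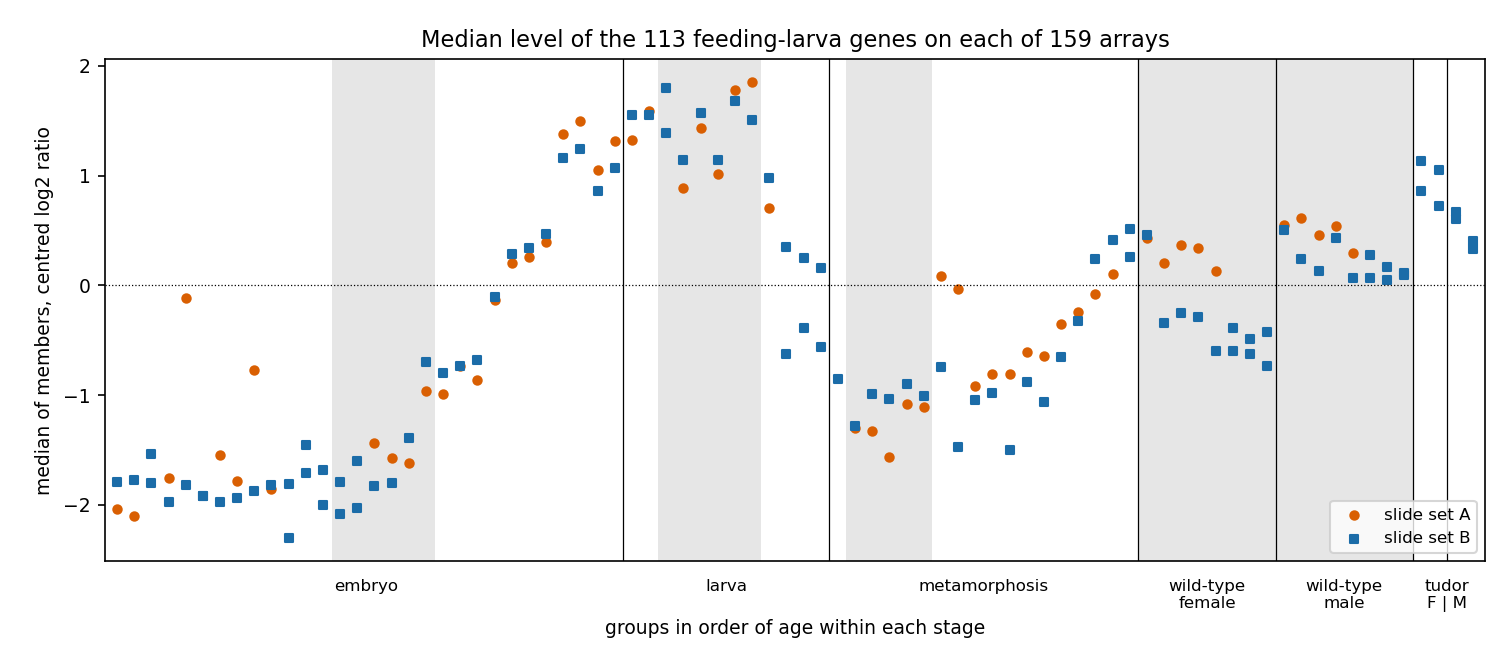
Median log2 ratio of the 113 members on each of the 159 arrays in life-cycle order, with circles for slide set A, squares for slide set B and grey bands for the arrays the rule used. The medians rise late in embryogenesis, stay high to 84 h, fall to the prepupa and rise again in late pupae, and those of tudor females (0.72 to 1.13) lie above those of wild-type females (-0.74 to 0.46).

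Outside the arrays of the rule, the median level of the members was -1.90 in embryos of 0 to 2 h, where array medians ran from -2.10 to -1.53. It was -0.61 (-0.99 to -0.10) in embryos of 13 to 17 h and 1.24 (0.86 to 1.50) in embryos of 20 to 24 h. By the last hours of embryogenesis 87 members were no more than 1 log2 unit below their level in the feeding larva. At 13 to 17 h it was 15, and members above the feeding level are counted in all such numbers. At 24 to 33 h of larval life the median was 1.50 (1.32 to 1.59) and 108 members were no more than 1 unit below. In the late larvae titled Larvae_96h and Larvae_105h it was 0.47 (-0.63 to 0.98), with 56 no more than 1 unit below. In pupae of 12 to 24 h it was -0.85 (-1.48 to 0.09), with 6 no more than 1 unit below. Pupae of 72 to 96 h had 0.32 (-0.08 to 0.52) and 54 members no more than 1 unit below.

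**Figure D2:**
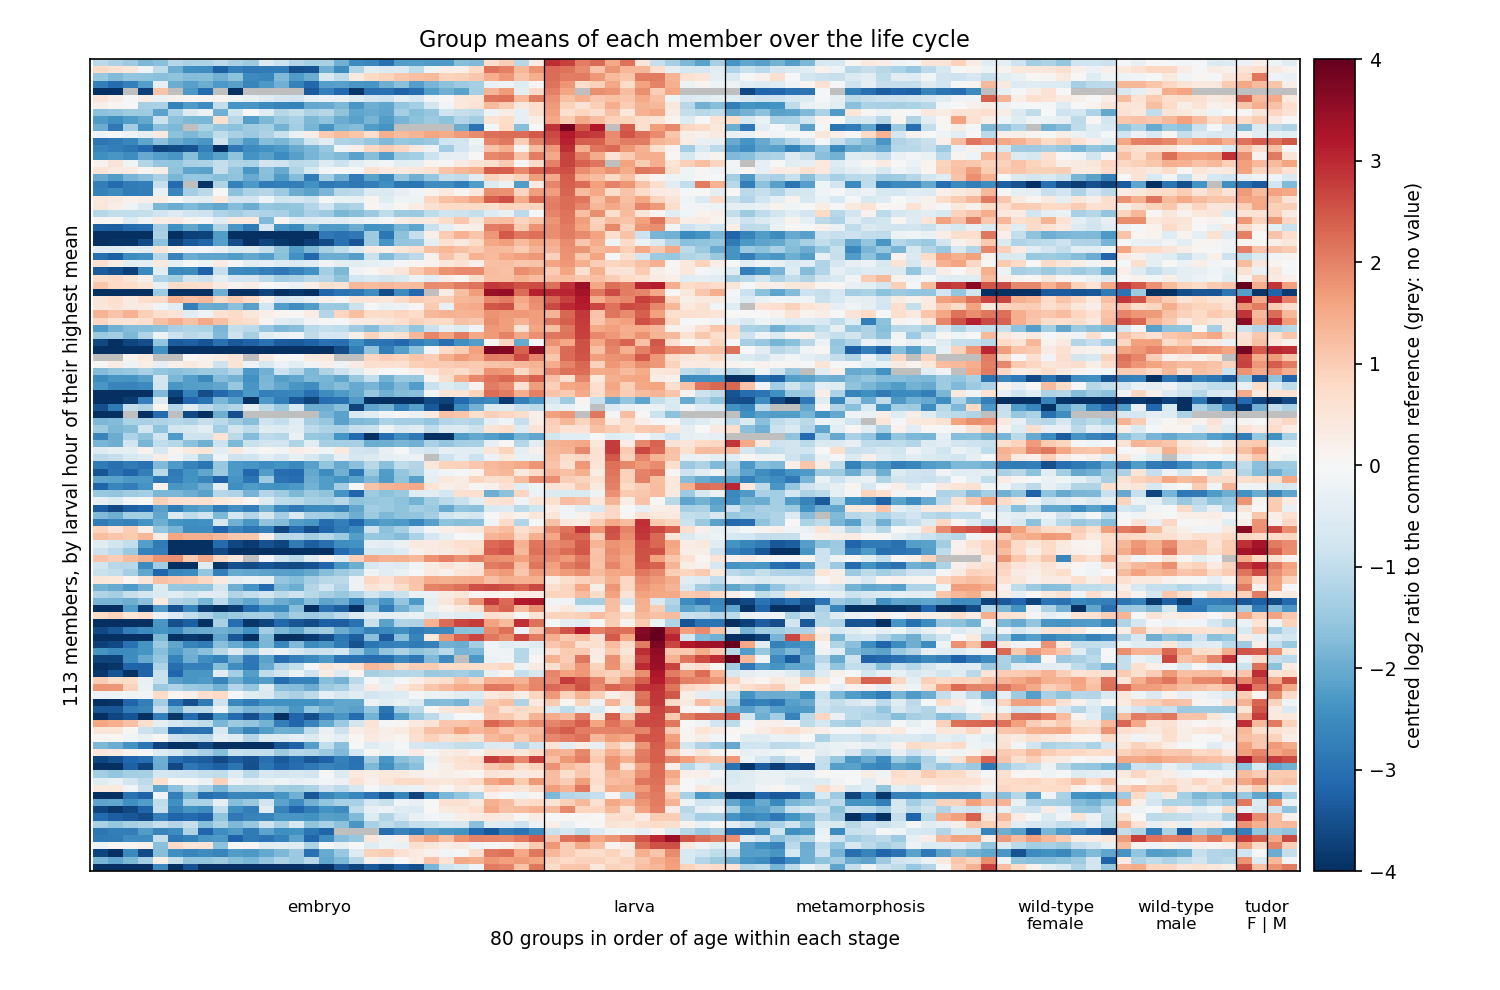
Group means of the 113 members (rows, ordered by the larval time of their highest mean) in the 80 groups (columns, in life-cycle order), in log2 ratio to the reference from -4 to 4, with grey where there was no value. Most rows turn from low to high within late embryogenesis, and many are also high in late pupae and in tudor adults.

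Embryos of 20 to 24 h were compared with embryos of 13 to 17 h, none of which the rule used. The rule fixed that members were low at 7 to 13 h and high in larvae, so a rise somewhere between is built in, and the comparison adds its timing. Of 98 members tested with limma, 91 were higher at 20 to 24 h, 2 were lower and 5 did not pass. Over all 6667 probes tested, 33.4% were higher and 30.2% were lower, or 63.7% in either direction. The median difference was 1.59 for the members and 0.01 for all probes. In 56 members all 8 later arrays lay above all 8 earlier ones. Counts of members without overlap, here and below, are a description, since the share of all probes without overlap is not given beside them.

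The gene fau ran from 2.05 to 4.30 (median 3.29) on the 8 later arrays and from -3.11 to 0.27 (median -1.92) on the earlier ones. Its difference was 5.05 (SE 0.40, limma adjusted p = 1.02e-08), and the groups did not overlap. Zasp66, a Z-disc protein of muscle, ran from 0.69 to 2.94 (median 1.63) against -3.73 to -1.503 (median -3.39). It rose by 4.92 (SE 0.30, limma adjusted p = 7.69e-10). CG4229 ran from 1.27 to 3.67 (median 3.04) against -2.72 to -0.29 (median -1.77), a rise of 4.52 (SE 0.35, limma adjusted p = 9.32e-09). The cuticle gene obst-E was between 1.60 and 2.73 (median 2.13) against -4.08 to 0.43 (median -2.15). It rose by 3.97 (SE 0.50, limma adjusted p = 2.35e-06), and its earlier arrays were spread widely.

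Every member tested rose among 9 genes of digestion, 7 of mitochondria, 4 of nerve and synapse, 4 of cuticle and 3 of muscle. Median differences in these groups were 2.53, 1.20, 2.31, 1.27 and 2.34. The carboxypeptidase CG8560 rose by 3.02 (SE 0.34, limma adjusted p = 5.83e-07), and igl, a calmodulin-binding protein of neurons, rose by 3.71 (SE 0.43, limma adjusted p = 1.80e-06). ATPsynO, a subunit of ATP synthase, rose by 0.95 (SE 0.16, limma adjusted p = 5.64e-05). In a list of digestive proteases outside the set, 5 genes were measured and 3 tested, and all 3 rose, with a median of 3.46.

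The 2 that fell were CG15818 and PPO2. On the later arrays CG15818 ran from -0.72 to 0.88 (median -0.06), against 0.46 to 1.53 (median 1.43) on the earlier ones. It fell by 1.19 (SE 0.21, limma adjusted p = 8.59e-05). PPO2 ran from -0.21 to 1.27 (median 0.44) against 0.62 to 1.14 (median 1.00), and fell by 0.54 (SE 0.17, limma adjusted p = 0.0107). For both, the groups overlapped. Among 5 genes of a haemocyte list, PPO2 included, 3 fell and none rose.

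**Figure D3:**
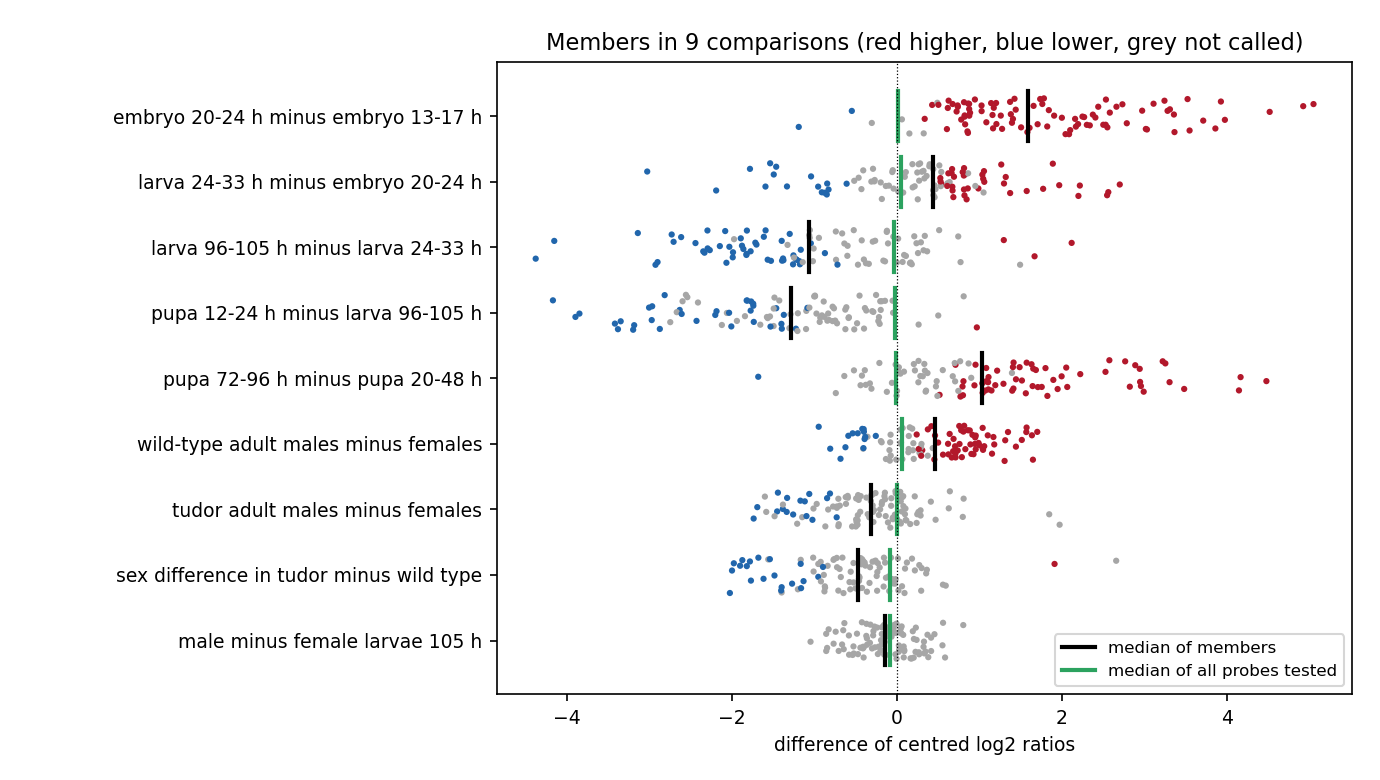
Estimated log2 difference of each tested member in 9 comparisons, red where called higher, blue where called lower and grey where not called at an adjusted p of 0.05 (limma). Black bars mark the median of the members and green bars the median of all probes tested, which lie farthest apart between embryos of 20 to 24 h and of 13 to 17 h (1.59 against 0.01).

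Young larvae of 24 to 33 h were then set against embryos of 20 to 24 h, the arrays of which also served above. Of 100 members tested, 36 were higher, 16 were lower and 48 did not pass. Over 6730 probes 21.1% were higher and 17.8% lower, or 38.8% in either direction. The median difference was 0.44 for members and 0.05 for all probes, and 12 members lay above without overlap and 8 below.

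CG1774 was at 2.56, 2.82, 2.94 and 3.07 on the 4 larval arrays and between -1.18 and 1.06 (median 0.50, n = 7) in the embryos. It rose by 2.70 (SE 0.41, limma adjusted p = 0.000341). CG7252 was at 1.33, 2.38, 2.40 and 2.58 against -2.25 to 0.83 (median -0.16, n = 7), a rise of 2.56 (SE 0.44, limma adjusted p = 0.000843). CG1552 was at 1.71, 1.85, 2.20 and 2.52 against -1.23 to 0.19 (median -0.37), and rose by 2.55 (SE 0.23, limma adjusted p = 9.91e-06). Hf was at 1.57, 1.66, 1.79 and 2.09 against -1.62 to 0.37 (median -0.29), and rose by 2.22 (SE 0.27, limma adjusted p = 5.99e-05). In each of these 4 genes every larval array lay above every embryonic one.

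CG4229, which had risen before hatching, was at -0.29, -0.28, -0.03 and 0.00 in young larvae against 1.27 to 3.67 in embryos. It fell by 3.02 (SE 0.28, limma adjusted p = 1.02e-05). CG1441, annotated as a fatty acyl-CoA reductase, was at -0.68, -0.23, -0.02 and 0.10 against 0.32 to 3.17 (median 2.11), and fell by 2.19 (SE 0.34, limma adjusted p = 0.000345). Cht7 encodes a chitinase of cuticle. It was at 0.34, 0.58, 0.93 and 1.22 against 1.86 to 3.19 (median 2.53), and fell by 1.78 (SE 0.13, limma adjusted p = 2.53e-06). CG3106 was at 0.20, 0.20, 0.29 and 0.53 against 1.25 to 2.80 (median 1.86), and fell by 1.59 (SE 0.24, limma adjusted p = 0.000291). Higher embryonic than larval values, with no overlap, were thus seen in genes chosen for a high level in later larvae.

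By role, 4 of 9 genes of digestion rose (Alp6, CG11912, CG7252 and CG9672) and 1, the alpha-mannosidase LManV, fell. Of 7 mitochondrial genes 4 rose and none fell. Of 3 muscle genes Zasp52 and Zasp66 fell, and of 4 cuticle genes Idgf5, a chitinase-like growth factor, rose while Cht7 and obst-E fell. Of 5 sugar genes Argk1, the arginine kinase that buffers ATP, and Sodh2, a sorbitol dehydrogenase, rose. All 3 digestive proteases tested outside the set rose, with a median of 1.86.

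The 12 arrays of 43 to 84 h gave the rule its mean, but not the trend within it. Of 98 members tested for a slope over these hours, 11 rose, 13 fell and 74 did not pass, where 7.58% of 6693 probes rose and 5.83% fell, or 13.4% in either direction. The median slope was 0.14 log2 units per 10 h for members and 0.01 for all probes. Without the arrays of 84 h, the last time in the fit, no member was called, and without those of 49 h 15 were called. What these losses rest on was not tested. Within larvae, 29 members had their highest mean at 84 h, 22 at 33 h, 18 at 43 h, 15 at 72 h and 11 at 57 h.

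Among the genes that fell, igl was at 1.70 and 2.06 at 43 h, 1.25 and 1.99 at 49 h, 0.50 and 0.80 at 57 h and 1.13 and 1.14 at 67 h. It was at 0.10 and -1.73 at 72 h and at -1.40 and -2.31 at 84 h. Both arrays of 84 h and 1 of 72 h lay below all others, and the slope was -0.92 per 10 h (SE 0.14, limma adjusted p = 0.00261). CG1774 was at 2.17 and 1.89 at 43 h and at -1.49 and -0.33 at 84 h. Its slope was -0.71 per 10 h (SE 0.16, limma adjusted p = 0.0119). Slopes of slo, a calcium-activated potassium channel, and of Ktl were -0.70 (SE 0.13, limma adjusted p = 0.00511) and -0.43 (SE 0.11, limma adjusted p = 0.0214).

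The cuticle gene obst-E went the other way. It was at 1.27 and 1.16 at 43 h, 0.30 and 0.84 at 49 h, 2.29 and 2.62 at 57 h, 0.99 and 2.11 at 67 h, 3.77 and 3.69 at 72 h and 4.33 and 3.94 at 84 h. Its 4 arrays of 72 and 84 h lay above all 8 earlier ones, and its slope was 0.84 per 10 h (SE 0.14, limma adjusted p = 0.00354). LManV had a slope of 0.78 (SE 0.19, limma adjusted p = 0.0162). The serine protease gene CG11912, at 2.10 and 2.06 at 72 h and 4.10 and 3.37 at 84 h, had a slope of 0.74 (SE 0.14, limma adjusted p = 0.00748). The esterase alpha-Est2, at 3.20 and 2.21 at 84 h, had 0.73 (SE 0.14, limma adjusted p = 0.00684). PPO2 rose by 0.53 per 10 h.

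**Figure D4:**
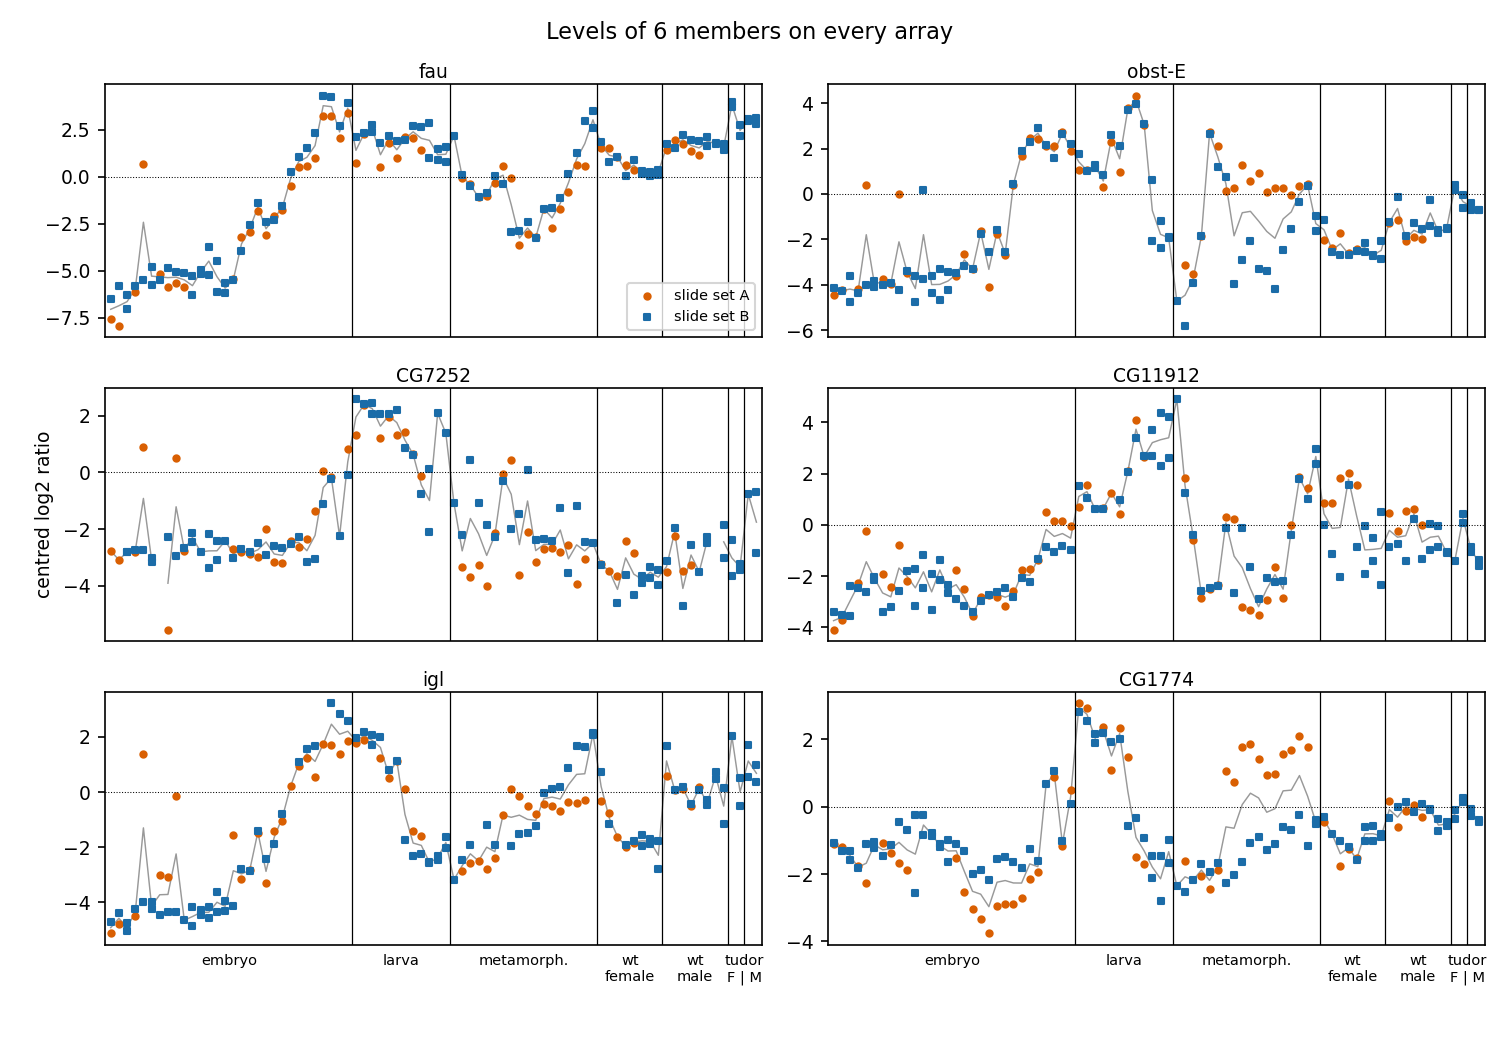
Log2 ratio of fau, obst-E, CG7252, CG11912, igl and CG1774 on every array in life-cycle order, with circles for slide set A and squares for slide set B. In larvae igl and CG1774 fall before obst-E does, which is at 3.04 and 3.06 at 96 h and at -2.08 and 0.62 in the oldest larvae.

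Late larvae (Larvae_96h and Larvae_105h) were set against larvae of 24 to 33 h. The rule made members high in feeding larvae and low in prepupae. A fall somewhere between is built in, so the direction here is in part built in, and the comparison adds the timing of the fall. Of 100 members, 48 were lower, 3 were higher and 49 did not pass, where 17.7% of 6643 probes were lower and 12% higher, or 29.6% in either direction. The median was -1.06 for members and -0.03 for all probes, and 45 members lay below without overlap. The times differed, with a member median of 0.84 at 96 h and -0.04 in the older group. In the same order, 77 and 26 members were no more than 1 unit below their feeding level. With 96 h alone as the late time 46 members were lower and 13 higher, and with the older group alone 63 were lower and 1 higher, a split made after the medians were seen. The share of all probes called at either time alone is not given, so these counts are a description.

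CG1774 was at -2.12, -1.70, -1.47 and -0.93 in late larvae against 2.56 to 3.07 in young ones, and fell by 4.37 (SE 0.27, limma adjusted p = 2.27e-05). The neuronal gene igl was at -2.58, -2.54, -2.26 and -1.61 against 1.77, 1.89, 1.97 and 2.20, and fell by 4.15 (SE 0.25, limma adjusted p = 2.27e-05). Ktl was at -2.03, -1.31, -1.29 and -1.10 against 1.40, 1.60, 1.81 and 1.98, and fell by 3.14 (SE 0.26, limma adjusted p = 0.000115). All 3 genes were separated between the ages by more than 2 log2 units. Faa was at -1.70, -1.09, -0.01 and 0.31 against 1.28, 2.21, 2.91 and 3.02, and fell by 2.92 (SE 0.52, limma adjusted p = 0.00321).

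The 3 genes that were higher in late larvae encode a serine protease, an esterase and a small heat shock protein. CG11912 was at 2.64, 2.68, 2.71 and 3.71 against 0.70, 1.05, 1.51 and 1.54, and rose by 1.67 (SE 0.30, limma adjusted p = 0.00354). The esterase alpha-Est2 was at -0.86, 1.07, 2.24 and 2.71 against -1.02, -0.63 and -0.55, and rose by 2.12 (SE 0.65, limma adjusted p = 0.0368). The heat shock gene l(2)efl was at 1.99, 3.07, 3.39 and 3.48 against 0.76, 1.45, 1.81 and 2.56, and rose by 1.30 (SE 0.44, limma adjusted p = 0.048). Values of the ages overlapped for alpha-Est2 and l(2)efl, and not for CG11912. The calls of alpha-Est2 and l(2)efl were lost under several alternatives, among them some that left out 1 array.

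Digestive genes were divided. CG11912 rose, while CG7252, sphe, Alp6, CG18585 and CG8774 fell, 5 of 9 tested, with a median of -1.56 over the 9. CG7252 fell by 2.90 (SE 0.49, limma adjusted p = 0.00247) and the serine protease homologue sphe by 2.33 (SE 0.24, limma adjusted p = 0.000261). Sexed larvae of the oldest age were not among the arrays compared. There CG7252 was at 1.38 in males and 2.08 in females, with 1 array each, against a mean of 1.57 in feeding larvae. Its fall was thus not seen on those arrays. Means of sphe, Alp6, CG18585 and CG8774 in the sexed larvae were negative in both sexes. Of 7 mitochondrial members 5 fell, among them ATPsynO by 1.99 (SE 0.39, limma adjusted p = 0.0053) and the dicarboxylate carrier Dic1 by 2.34 (SE 0.50, limma adjusted p = 0.00714). Of 4 nerve genes igl, slo and beat-Vb fell, of 4 genes of fat and amino acid metabolism CG1441, Faa and Kyat fell, and of 5 sugar and 4 cuticle genes none was called. Several of these sugar and cuticle genes differed between 96 h and Larvae_105h, which the comparison took together. Their means at these times were 1.87 and -0.73 for Argk1 and 1.55 and -1.06 for Ald1. They were 3.055 and -0.73 for obst-E, 1.35 and -0.64 for Cht7 and 1.53 and 1.06 for Idgf5. Of 4 digestive proteases tested outside the set 2 fell and none rose.

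Pupae of 12 to 24 h were compared with the same late larvae. The rule made members low at 2 to 10 h of metamorphosis, so the direction is in part built in. Of 103 members, 34 were lower, 1 was higher and 68 did not pass, where 3.31% of 6924 probes were lower and 2.72% higher, or 6.02% in either direction. The median was -1.29 for members and -0.03 for all probes, and 12 members lay below without overlap. Without the unlike arrays of 12 and 16 h, 58 were called. The number called fell to 12 without replicate 2 of 96 h, to 13 without replicate 2 of Larvae_105h and to 19 without replicate 1 of 96 h, and without replicate 2 of 16, 20 and 24 h it was 17, 19 and 23.

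Late larvae had fau at 0.99, 1.43, 2.63 and 2.86 and pupae at -3.62 to 0.55 (median -2.67, n = 8), and fau fell by 3.89 (SE 0.80, limma adjusted p = 0.014). Pupal CG11912 was between -3.32 and 0.29 (median -0.89) against 2.64 to 3.71, and fell by 4.17 (SE 0.75, limma adjusted p = 0.00725). In pupae l(2)efl ran from -2.33 to 0.29 (median -0.58) against 1.99 to 3.48, and fell by 3.84 (SE 0.54, limma adjusted p = 0.00273). Tango10 was between -2.66 and -0.29 (median -1.79) against 0.82, 1.72, 2.24 and 2.45, and fell by 3.41 (SE 0.41, limma adjusted p = 0.000927). None of the 4 genes overlapped between the stages.

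The gene that rose was igl, at -1.95 to 0.12 (median -0.83, n = 7) in pupae after its larval fall to between -2.58 and -1.61, with overlap. It rose by 0.97 (SE 0.25, limma adjusted p = 0.0411), a call lost under several alternatives. Of 10 genes of digestion 5 fell and none rose, of 5 sugar genes Tpi, Pglym78 and Sodh2 fell, and of 7 mitochondrial genes 3 fell. Of 5 digestive proteases outside the set 4 fell. PPO2 fell by 3.18.

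Late pupae of 72 to 96 h were compared with pupae of 20 to 48 h, of which the arrays of 20 and 24 h also served above. Members were chosen as low at 2 to 10 h of metamorphosis, so a low level in the pupae soon after may be in part built in. Of 102 members, 59 were higher, 1 was lower and 42 did not pass, where 20.2% of 6780 probes were higher and 17.8% lower, or 38% in either direction. The median was 1.04 for members and -0.01 for all probes, and 28 members lay above without overlap and 1 below. With replicate 2 alone at 20 to 80 h, 66 members were called.

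In late pupae fau ran from 0.55 to 3.46 (median 1.92, n = 6) against -3.62 to -1.12 (median -2.57, n = 12), a rise of 4.16 (SE 0.39, limma adjusted p = 2.05e-07). CG11912 ran from 1.00 to 2.96 (median 1.83) against -3.51 to -0.12 (median -2.53), a rise of 4.14 (SE 0.36, limma adjusted p = 7.95e-08). CG14613 ran from 0.33 to 1.74 (median 1.15) against -3.24 to -1.86 (median -2.40), a rise of 3.48 (SE 0.24, limma adjusted p = 3.23e-09). These 3 genes were fully separated between early and late pupae. CG7565 ran from 0.53 to 2.70 (median 2.03, n = 5) against -6.64 to -0.44 (median -2.39), and rose by 4.48 (SE 0.81, limma adjusted p = 0.000336).

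The exception, CG10814, was at -2.53, -1.33, -1.32, -1.01 and -0.94 in late pupae and between -0.80 and 1.46 (median 0.14, n = 11) before. It fell by 1.68 (SE 0.30, limma adjusted p = 0.000347). All 4 members of nerve and synapse rose, with a median of 1.94, and so did all 3 cuticle members tested and 4 of 5 mitochondrial ones. Of 3 muscle members Zasp66 and l(2)efl rose. Of 10 genes of digestion only CG11912 and CG9672 rose. In a list of neuronal genes 5 of 6 tested rose and in a muscle list 3 of 5 rose and 1 fell, slo being a member in the first and Zasp52 and Zasp66 in the second.

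Levels of ATPsynF and ATPsynO in late pupae were 1.92 to 4.62 (median 2.81, n = 6) and 2.55 to 3.10 (median 2.63, n = 4). Maternal RNA is the source of transcripts in the earliest embryo, and there most members were low. In embryos of 0 to 2 h, Zasp66 was between -5.90 and -5.22 and igl between -5.14 and -4.38 on the 6 arrays. The glycolytic genes Tpi and Pglym78 were above 0 on all 6, at 0.59 to 1.97 and at 0.95 to 1.77.

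In adults the rule used the mean over 32 wild-type arrays, not the difference between sexes or the trend with age. The median of the members was -0.07 in wild-type females, with array medians of -0.74 to 0.46, and 0.28 in wild-type males, with 0.05 to 0.61. Of 102 members, 58 were higher in males, 14 were lower and 30 did not pass, where 39.9% of 6860 probes were higher in males and 34.1% lower, or 74% in either direction. Without centring 45 members were higher and 20 lower, and under quantile normalization 44 and 22. The median was 0.46 for members and 0.07 for all probes. At 0 to 24 h and 5 d alone, the ages of the tudor flies, 11 members were called, an alternative added after the data were seen.

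CG3690 ran from -1.48 to 0.42 (median -0.34, n = 16) in females and from 0.47 to 2.02 (median 1.16, n = 16) in males. Its difference was 1.57 (SE 0.14, limma adjusted p = 6.97e-11), and the sexes did not overlap. CG4377 ran from -2.10 to 1.59 (median -0.09) in females and from 0.14 to 3.32 (median 1.64) in males, with overlap, and was 1.70 higher in males (SE 0.23, limma adjusted p = 1.17e-07). Faa, of tyrosine breakdown, ran from -1.91 to -0.51 (median -1.69, n = 15) in females and from -0.71 to 1.11 (median 0.47, n = 15) in males, and was 1.65 higher in males (SE 0.11, limma adjusted p = 2e-13). CG1441 ran from -3.22 to -1.30 (median -2.12) and from -1.41 to 0.35 (median -0.56), and was 1.64 higher in males (SE 0.15, limma adjusted p = 1.05e-10). Both Faa and CG1441 overlapped at the edge of their ranges.

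Higher in females were CG3868, at 0.77 to 2.96 (median 1.34) against -0.38 to 1.44 (median 0.50) in males, and Trx2, a thioredoxin, at 0.45 to 2.22 (median 1.26) against -0.16 to 1.02 (median 0.55). The male minus female differences were -0.95 (SE 0.15, limma adjusted p = 2.6e-06) and -0.81 (SE 0.15, limma adjusted p = 2.63e-05). The sexes overlapped in both genes.

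All 4 nerve and all 3 muscle members were higher in males, as were 5 of 9 genes of digestion, 3 of 5 sugar genes (Ald1, Argk1 and Sodh2) and 2 of 7 mitochondrial ones. The sugar gene Pglym78 was lower in males, with a difference of -0.40 (SE 0.12, limma adjusted p = 0.00354). These small counts stand beside the share of all probes higher in males given above, and are a description. In igl the difference was 1.57 (SE 0.15, limma adjusted p = 4.06e-10) and in Zasp66 it was 1.10 (SE 0.16, limma adjusted p = 6.46e-07). Of 2 regulators that act in sex determination and dosage compensation, dsx was higher in males by 0.76 (SE 0.27, limma adjusted p = 0.0138). The other, msl-2, differed by -0.38 (SE 0.10, limma adjusted p = 0.00169). The msl-2 protein is made in males, where it acts on the X chromosome.

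RNA of testis and of cell cycle genes moved with sex in the same flies. In a list of 8 testis genes, none of them a member, all 8 were higher in wild-type males, with a median of 4.38, and array means were 1.95 to 3.69 in males and -2.35 to -1.07 in females. In a list of 6 cell cycle genes, also without a member, 5 were lower in males, with a median of -2.03 and array means of -2.03 to -1.20 in males and -0.65 to 1.19 in females. Their part in the sex differences of the members was not tested.

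In tudor flies the testis list was at -1.20 to -0.71 in males and -1.32 to -0.66 in females, with none of 8 genes higher in males. The cell cycle list was at -2.58 to -1.59 in males and -2.49 to -1.43 in females, with none called. The median of the members was 1.01 in tudor females (0.72 to 1.13) and 0.59 in tudor males (0.33 to 0.67). Of 109 members, 16 were lower in males, none was higher and 93 did not pass, where 6.01% of 7502 probes were lower and 2.17% higher, or 8.18% in either direction. Without centring 15 were lower and 2 higher, and under quantile normalization 10 and 3. The median was -0.31 for members and -0.00 for all probes, and 13 members lay lower in males without overlap and 2 higher. Without 1 array of 5 d, 3 to 9 members were called.

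Rim2, a mitochondrial pyrimidine nucleotide carrier, was at 1.29, 0.66, 1.30 and 0.78 in tudor females and at -0.56, -0.32, -0.07 and -0.82 in tudor males. The difference was -1.45 (SE 0.24, limma adjusted p = 0.00997), and no arrays overlapped. Atx2 was at 0.32, 1.28, 1.98 and 2.27 against -0.23, -0.18, -0.46 and -0.05, a difference of -1.69 (SE 0.32, limma adjusted p = 0.0172). With the mean of its 3 probes that difference was -0.53 (limma adjusted p = 0.0764). Hf was at 0.66, 1.58, 3.12 and 2.77 against 0.44, 0.57, 0.34 and 1.02, with overlap, and differed by -1.44 (SE 0.37, limma adjusted p = 0.0437). CG7565 differed by -1.73 (SE 0.29, limma adjusted p = 0.0129).

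**Figure D5:**
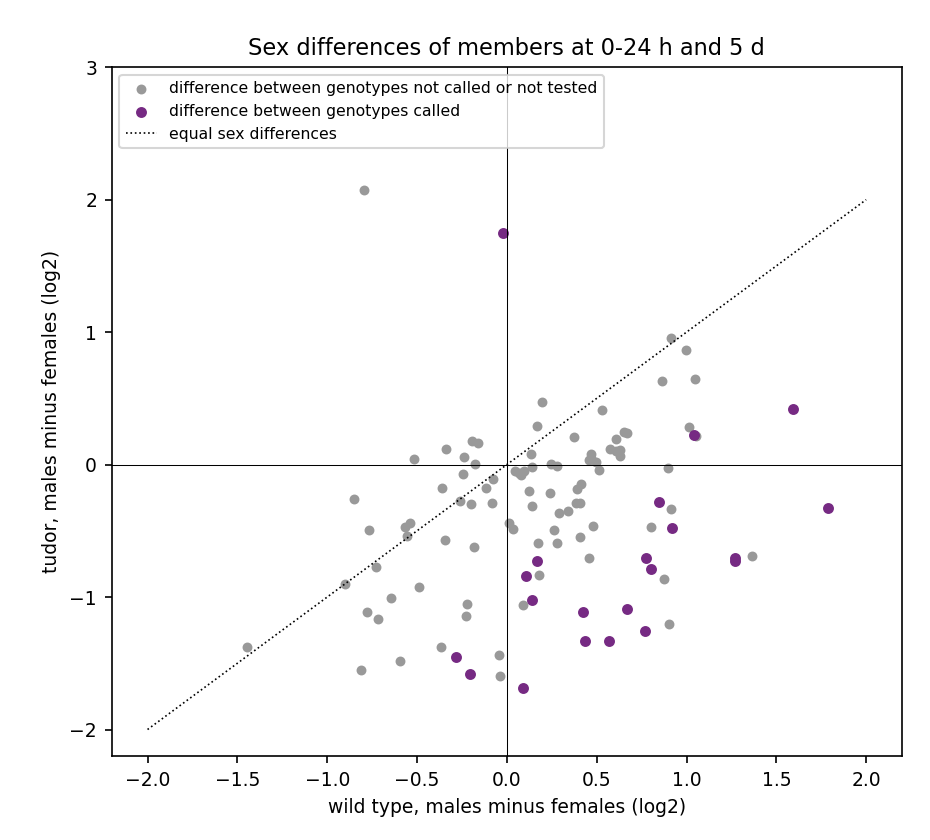
Male minus female log2 difference of each member at 0 to 24 h and 5 d in wild-type flies (horizontal axis) and in tudor flies (vertical axis), with the dotted line where both are equal and purple for members whose difference between the genotypes was called. In wild type 74 of 111 members lie above 0, and in tudor 33 of 111 do.

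The difference between the sexes was itself compared between tudor and wild type at 0 to 24 h and 5 d. Of 102 members, 20 had a lower male minus female difference in tudor, 1 had a higher one and 81 did not pass, where 13.7% of 7003 probes were lower and 7.84% higher, or 21.6% in either direction. Without centring the split was 10 lower and 2 higher, and under quantile normalization 8 and 4. The median was -0.47 for members and -0.08 for all probes. At these ages the median male minus female difference was 0.18 in wild type and -0.30 in tudor. Array medians were -0.25 to 0.46 in wild-type females, 0.13 to 0.55 in wild-type males, 0.72 to 1.13 in tudor females and 0.33 to 0.67 in tudor males. All 8 tudor arrays are on slide set B, and with that set alone 12 members were called. Without the flies of 5 d 4 members were called.

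HisT was at 3.57, 3.00, 3.46 and 3.41 in tudor females and 2.60, 2.13, 2.11 and 1.58 in tudor males, and at 0.72 ± 0.65 and 1.49 ± 0.11 (SD, n = 4 each) in wild-type females and males. The difference of differences was -2.02 (SE 0.41, limma adjusted p = 0.000465). All 4 tudor females lay above all other flies in this gene. CG3690 was at 0.80, 0.82, 1.44 and 0.52 in tudor females and 0.14, 0.56, 0.27 and -0.20 in tudor males, against means of -0.18 and 1.09 in wild type. It gave -1.97 (SE 0.37, limma adjusted p = 0.000201). Within tudor the sexes overlapped in this gene, and its male minus female difference of -0.70 did not pass (limma adjusted p = 0.117).

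CG3301 was at 0.82, 2.27, 1.55 and 0.96 in tudor females and at 2.05, 0.18, 0.30 and 0.16 in tudor males, where 1 male array was far above the rest. It gave -1.996 (SE 0.57, limma adjusted p = 0.011). CG33307 gave -1.90 (SE 0.57, limma adjusted p = 0.0161). The member that went the other way was CG7252, at -2.38, -3.66, -3.23 and -3.45 in tudor females and -0.77, -2.83 and -0.68 in the 3 tudor male arrays with a value. It gave 1.91 (SE 0.60, limma adjusted p = 0.023). By role, 3 of 5 sugar genes (Ald1, Sodh2 and Tpi) had a lower difference in tudor, as did 2 of 4 nerve genes.

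With age, from 0 to 24 h (entered as 0.5 d) to 30 d, 30 of 102 members fell in wild-type flies, 4 rose and 68 did not pass, where 8.31% of 6860 probes fell and 6.08% rose, or 14.4% in either direction. The median slope was -0.16 log2 units per 10 d for members and -0.01 for all probes. Without the flies of 0 to 24 h 10 members were called. Flies of 20 d and older were all on slide set B, and within wild-type females of 3 to 15 d the member medians were 0.13 to 0.37 on set A and -0.60 to -0.25 on set B.

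CG8560 was at 2.36 and 2.06 in females of 3 d and -2.05 and -0.87 at 30 d, and at 2.05 and 2.13 in males of 3 d and -0.12 and -0.42 at 30 d. Its slope was -0.90 per 10 d (SE 0.13, limma adjusted p = 1.79e-05). CG10949 was at 1.50 and 1.30 in females and 1.34 and 1.53 in males of 0 to 24 h, and at -1.001, -2.05, -1.15 and -1.55 at 30 d. Its slope was -0.68 (SE 0.14, limma adjusted p = 0.00112). In both genes the old flies of either sex lay below the young ones. Slopes of snRNP-U1-70K and CG14613 were -0.56 (SE 0.15, limma adjusted p = 0.0133) and -0.54 (SE 0.11, limma adjusted p = 0.000914).

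All 7 mitochondrial members tested changed with age, and 6 of them fell. ATPsynO fell by 0.50 per 10 d (limma adjusted p = 0.00173) and ATPsynF by 0.42 (limma adjusted p = 0.00856), and Sod2, the mitochondrial superoxide dismutase, fell by 0.33 (limma adjusted p = 0.00354). The seventh, Tspo, the translocator of the outer membrane, rose by 0.25 (SE 0.09, limma adjusted p = 0.0462). Of 5 sugar genes Ald1, Argk1 and Pglym78 fell, and of 4 nerve genes beat-Vb, igl and slo fell. The others that rose were msl-2 by 0.19 (SE 0.06, limma adjusted p = 0.0292), CG4377 by 0.50 (SE 0.14, limma adjusted p = 0.0166) and CG33307 by 0.35 (SE 0.10, limma adjusted p = 0.0178). Without the slide set term the slopes of CG4377 and CG33307 were 0.155 (limma adjusted p = 0.505) and 0.06 (limma adjusted p = 0.787).

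Male and female larvae of the oldest age (Larvae_105h_male and Larvae_105h_female), 2 arrays each, had member medians of -0.20 and -0.05. Each male array shared a slide with a female array and deviated with it (median correlation 0.68), which the main fit did not use. With limma no member of 100 was called, and 2 had an unadjusted p under 0.05, Atx2 and CG4842, where 3.57% of 6609 probes were higher in males and 0.0605% lower, or 3.63% in either direction. The median was -0.14 for members and -0.08 for all probes. All 8 genes of the testis list were higher in male larvae, with array means of 1.39 to 1.55 against -1.63 to -1.25. The list was chosen with earlier results of these data known, so that separation is a description.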

How the data were processed

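Whole-animal poly(A)+ RNA of 159 samples was hybridised in 2 colours against a common reference and scanned with a GenePix scanner, per the labels' protocols. The deposited values are log2 ratios of red to green. For background correction and normalization by the authors, the method is not given in the sources used here. Depth does not apply to arrays, and the number of arrays limits precision. Probe names came from the platform annotation: 4137 probes had 1 gene name, 159 several and 8292 none, and 4089 identifiers were found in the Release 6 gene table.

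Each array was centred on its median (-0.78 to 0.77 as deposited), 252 values above 16 were set missing, and each gene kept its probe with most values. Probes with values on at least 80% of the arrays of a comparison were tested with limma 3.58.1 in R 4.3.3 (lmFit, eBayes, slide set as a covariate except for tudor sexes, two-sided, Benjamini-Hochberg over all probes, threshold 0.05). The 12 members with the widest margin and, in each comparison, up to 4 called members per direction with the largest difference are named, with members of the lists, those at the rule's edge and 2 members per stage outside the rule. Others named by role were chosen with values seen. Members, roles and lists were chosen with earlier results of these data known. Alternatives covered centring, filters, slide set, slide block, replicate block and left-out arrays. Counts of members called under an alternative are given without the share of all probes called under it. On simulated data with 200 shifted probes, a shift of 1 was recovered in 92% of cases between late embryos and 35% between pupae of 12 to 24 h and late larvae. For the larval sexes it was recovered in 33% and for the sex difference in tudor minus wild type in 21%, so members not called there may still differ.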

Additional observations from a re-analysis of the deposited data

Results flagged for a closer look

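Of 76 sets of 4 to 10 values examined, 5 held 1 array far from the rest, where chance gives about 1 in 20. Larvae of 24 h, replicate 1, had a member median of 1.3235, against 1.55 to 1.59 on the other 3 arrays of 24 to 33 h. On the same array CG7252 was at 1.331, against 2.38 to 2.58. CG11912 was at 3.7115 in Larvae_105h, replicate 2, against 2.64 to 2.71 on the other late larval arrays. CG10814 was at -2.533 in pupae of 80 h, replicate 2, against -1.33 to -0.94 on the other 4 late pupal arrays with a value. CG3301 was at 2.05 in tudor males of 0 to 24 h, replicate 1, against 0.16 to 0.30 on the other 3.

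The male minus female difference differed between tudor and wild-type flies in 21 members by limma. Members with the largest estimates per direction were HisT (-2.02), CG3301 (-1.996), CG3690 (-1.97) and CG33307 (-1.90), and CG7252 with 1.91. Of the 58 members higher in wild-type males, 17 were among the 21, and 36 had a male minus female estimate below 0 in tudor, of which 7 were called lower there. Of the 14 lower in wild-type males, 1 was among the 21, and 12 had an estimate below 0 in tudor, of which 2 were called. The 58 and the 14 were chosen on wild-type flies of all ages, while the tudor flies covered fewer ages. Part of the same wild-type arrays also entered the difference between the genotypes. The split of 17 against 1 is therefore in part built in by the choice, and no conclusion is drawn from it.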

How the results depend on the processing

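Rules with margins of 1 and 2 gave 203 and 68 members, and uncentred arrays gave 54, all of them among the 113. Slide set A alone called 24 members between young larvae and embryos, 18 between late and young larvae, 0 for the larval slope and for pupae of 12 to 24 h, 41 between wild-type sexes and 15 for adult age. With slides as a random block the larval slope had 11 calls and the larval sexes 1. Pupae of 12 to 24 h gave 21 calls without the slide set term and 58 without the 2 unlike arrays. With values on every array the wild-type sexes gave 44, the genotype difference 11 and age 20, and at tudor ages the sexes gave 11. The genotype difference gave 12 calls without centring, under quantile normalization and on slide set B, and age gave 22 without centring. The cause of these moves was not tested, beside fewer arrays or probes where these were left out.

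Without centring the median of all probes was -0.15 in late embryos, -0.22 in late larvae, 0.25 in pupae of 12 to 24 h and -0.16 for the wild-type sexes. Higher against lower was 58 to 14 for the wild-type sexes and 45 to 20 without centring or 44 to 22 under quantile normalization. For the genotype difference it was 1 to 20, 2 to 10 and 4 to 8, and for tudor sexes 0 to 16, 2 to 15 and 3 to 10. Leaving out arrays or ages gave 84 to 94 calls in late embryos, 41 to 56 in young larvae, 34 to 57 in late larvae, 0 to 34 for the larval slope, 12 to 44 in pupae of 12 to 24 h and 59 to 64 in late pupae. It gave 64 to 70 for the wild-type sexes, 3 to 16 for tudor sexes, 4 to 15 for the genotype difference, 10 to 37 for age and 0 to 1 for larval sexes. Deviations of same-numbered arrays had median correlations of 0.05 to 0.23 outside the larval sexes, with a lowest pair of -0.47. In late embryos every such pair was above 0 (lowest 0.08), but not every pair above 0.1 as pairing would need. Males and females that shared a slide did deviate together, with medians of 0.68 in larvae (2 pairs), 0.41 in wild-type adults (12 pairs) and 0.34 in tudor adults (2 pairs). The replicate block moved age from 34 to 53 calls, and gave 0 for larval sexes. Of the values of single named genes, 132 lost their call, most often those of igl in pupae of 12 to 24 h and of alpha-Est2 and l(2)efl in late larvae. No named gene changed direction under the alternatives run, and slide set A alone could not be fitted for tudor flies and larval sexes.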

Other observations

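Members were set against each other over all 159 arrays, as a description, since pairs share every array and its centring. Over 5851 pairs the median Pearson correlation was 0.53 and the lowest -0.20, with 15 pairs above 0.9 and 96 below 0. The closest pair was HisT and JMJD7 (0.98, n = 159), and side-VII, a cell recognition protein of the nervous system, correlated at 0.94 with HisT and 0.95 with JMJD7. Such likeness was not limited to members. Strn-Mlck, outside the set, correlated at 0.92 with HisT, 0.92 with JMJD7 and 0.88 with side-VII. Tango10 and fau correlated at 0.97. Among glycolytic genes Pglym78 and Tpi correlated at 0.91, and Ktl and igl, which fell within larval life, at 0.93. Whether probes of a pair share sequence was not tested.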
